A study of Mus musculus with 43 samples.

Results

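The 10 transcripts followed here, all known as markers of brain pericytes, were measured in libraries that had been sorted for endothelial cells: Pdgfrb, Notch3, Kcnj8, Abcc9, Atp13a5, Anpep, Cspg4, Vtn, Rgs5 and Higd1b. They were taken by gene symbol from a count table of 54532 genes. All 10 transcripts passed the filter on low counts (a level of 0.5 CPM, counts normalised to library size, reached in 1 or more libraries), which kept 29120 genes for testing.

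Pericytes are mural cells that lie within the basement membrane of capillaries and contact the endothelium directly. Endothelial cells recruit them by secreting PDGF-B, which binds the receptor tyrosine kinase encoded by Pdgfrb, and Notch signalling between the cells helps to maintain them. In the brain they contribute to the blood-brain barrier and to the control of capillary flow.

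The study profiled brain endothelial cells from inbred mouse strains by RNA sequencing, and 43 libraries were analysed here. Cells negative for CD45 and CD11b and positive for CD31 were sorted from mice that were 2 months old, and no pericyte marker was part of the sort. The 5 long-inbred strains were 129S1/SvImJ (9 libraries), A/J (5), C57BL/6J (6), DBA/2J (5) and NOD/ShiLtJ (6), and the wild-derived strains were CAST/EiJ (6) and WSB/EiJ (6). Libraries came from the cortex (21) or the hippocampus (22) of female (16) or male (27) mice, and every title carried the tag high (29 libraries) or low (14), whose meaning the labels do not give. No treatment or transgene is named in the labels. A wild-derived strain that the series also lists, PWK/PhJ, was not analysed here. Nothing in the labels ties a library to a mouse, so each p-value measures the spread between libraries. Of the low libraries, 13 were male and 1 was female.

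The total count per library ran from 1626534 to 49372356, with female libraries deeper (mean 2.55e+07) than male ones (mean 5.13e+06) and WSB/EiJ the shallowest strain (mean 3.17e+06). Female libraries also had a smaller share of rRNA-like counts (5.19% ± 3.84, SD) than male libraries (18.7% ± 4.18). Levels below are CPM, the usual counts-per-million measure, after scaling by the trimmed mean of M-values, and differences are log2 fold changes with their standard errors (SE). In libraries made from many cells, fewer pericytes and less RNA per pericyte cannot be told apart.

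Coordinates are those of GRCm38. Rgs5 lies at chr1:169655501-169695813 on the plus strand, Notch3 at chr17:32120820-32166852 on the minus strand and Vtn at chr11:78499091-78502324 on the plus strand. Kcnj8 (chr6:142564837-142571614) and Abcc9 (chr6:142587862-142702315) are neighbours on the minus strand, 16248 bases apart, and encode the pore and the regulatory sulfonylurea receptor of 1 potassium channel. Sequence upstream of the gene start was printed for these 5 transcripts, because Abcc9 and Notch3 were the pair most raised in WSB/EiJ, Vtn and Rgs5 were the pair lowered in CAST/EiJ, and Kcnj8 is the channel partner of Abcc9. The printed parts of the RefSeq promoter windows (GRCm38.p6, plus strand for Rgs5 and Vtn, minus strand for the others) are chr1:169655251-169655500 for Rgs5, chr11:78498870-78499090 for Vtn, chr17:32166891-32167140 for Notch3, chr6:142702316-142702524 for Abcc9 and chr6:142571615-142571864 for Kcnj8. For Vtn and Abcc9 the last 29 and 41 bases of the window, which lie within the gene spans given above, were cut. Capitals mark matches on either strand to TGGGAA (the core of the site bound by RBPJ, the Notch effector), TATAAA (the TATA box), GGGCGG (the GC box) or CACGTG (an E-box). In Vtn the capital run is 2 overlapping TATA matches, 1 on each strand.
Rgs5: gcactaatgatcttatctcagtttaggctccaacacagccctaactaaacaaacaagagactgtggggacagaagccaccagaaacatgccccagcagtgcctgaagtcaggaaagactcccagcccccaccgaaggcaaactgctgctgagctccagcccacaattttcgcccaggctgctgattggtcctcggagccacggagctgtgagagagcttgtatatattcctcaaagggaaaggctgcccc
Vtn: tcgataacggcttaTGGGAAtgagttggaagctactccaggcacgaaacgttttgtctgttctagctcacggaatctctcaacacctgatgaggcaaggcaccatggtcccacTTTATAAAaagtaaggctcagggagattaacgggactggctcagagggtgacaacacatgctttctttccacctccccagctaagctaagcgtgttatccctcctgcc
Notch3: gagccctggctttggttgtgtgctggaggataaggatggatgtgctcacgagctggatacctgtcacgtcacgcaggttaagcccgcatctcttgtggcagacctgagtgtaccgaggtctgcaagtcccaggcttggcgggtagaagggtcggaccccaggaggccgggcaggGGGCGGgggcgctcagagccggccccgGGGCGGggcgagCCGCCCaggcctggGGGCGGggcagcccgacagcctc
Abcc9: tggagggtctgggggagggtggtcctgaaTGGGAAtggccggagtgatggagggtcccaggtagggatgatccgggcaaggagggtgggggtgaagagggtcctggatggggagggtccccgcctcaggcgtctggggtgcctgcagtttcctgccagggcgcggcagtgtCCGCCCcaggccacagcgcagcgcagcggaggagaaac
Kcnj8: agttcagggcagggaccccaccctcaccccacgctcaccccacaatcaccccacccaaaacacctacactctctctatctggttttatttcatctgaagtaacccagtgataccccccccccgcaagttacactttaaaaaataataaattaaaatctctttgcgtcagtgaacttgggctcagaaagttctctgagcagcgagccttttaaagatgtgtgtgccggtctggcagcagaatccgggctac
Promoter windows were at hand for 8 of the 10 transcripts, all but Pdgfrb and Higd1b, and motifs were counted in the uncut windows of 250 bases. The RBPJ core was found in 2 of these 8 (Abcc9 and Vtn), against 21.6% of 32851 promoters. The GC box was found in 4 of 8 (32.7% of all promoters), the TATA box in 1 of 8 (12.4%) and CACGTG in 0 of 8 (6.02%). Rgs5 and Kcnj8 held none of the 4 motifs in this window. These matches describe letters only.

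Per length of exon, Rgs5 stood far above the other pericyte transcripts. Rgs5, a GTPase-activating protein for heterotrimeric G proteins, averaged 777 RPKM (CPM per kilobase of exon; range 216 to 1829) and ranked 24 of 29106 genes with a length, close to the endothelial tight junction gene Cldn5 at 848 RPKM. Vtn, which encodes the secreted adhesive protein vitronectin, averaged 204 RPKM and ranked 77. The receptors followed, with Pdgfrb at 47.4 RPKM and the Notch receptor Notch3 at 36.5 RPKM, beside the P-type ATPase Atp13a5 at 35.8 RPKM and Abcc9 at 30.7 RPKM. Higd1b, a protein with a hypoxia-inducible domain, averaged 20.7 RPKM, and the channel pore Kcnj8 averaged 12.9 RPKM. The surface peptidase Anpep (CD13) and the proteoglycan Cspg4 (NG2) were lowest, at 9.62 and 8.15 RPKM. As scaled CPM, which is not the share of raw counts, the 10 transcripts summed to 0.511% ± 0.223 (SD, n = 43) of a library. The range was 0.216% to 0.976%, and Rgs5 alone held 67.2% ± 11.4 of that sum.

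The libraries were rich in endothelial transcripts, as their label says, but also held RNA of other cell types. The mean log2(CPM + 1) of 20 endothelial genes was 9.42 ± 0.34 (SD), that of the 10 pericyte transcripts was 7.09 ± 0.58, and the former exceeded the latter in all 43 libraries. The gap averaged 2.33 ± 0.70 and was smallest, 0.34, in the WSB/EiJ male hippocampus library titled high. Markers of smooth muscle, the other mural cell type, ranged widely. Their 10 genes summed to between 101 and 450 CPM, against 2160 to 9759 CPM for the 10 pericyte transcripts. Myl9 averaged 52.4 RPKM, above Pdgfrb at 47.4, and Myh11 averaged 17.6 RPKM, above Kcnj8 at 12.9. Acta2 averaged 9.72 RPKM and was 0 in 7 libraries, and Cnn1 was 0 in 40 of 43 libraries. Oligodendrocyte precursors also express Cspg4. Their 6 markers summed to between 0 and 72.3 CPM, beside 28.0 to 346 CPM for Cspg4, and their part in the Cspg4 level was not tested. Among them C1ql1 was at 0 in 36 libraries, Matn4 at 0 in 34 and Sox10 at 0 in 21, and the others were Olig1, Olig2 and Pdgfra. The 8 astrocyte genes summed to between 1061 and 19379 CPM, beside 17886 to 39447 CPM for the 20 endothelial genes. The study states that its sort enriched endothelial cells without making them pure.

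Most transcripts were counted in every library. Rgs5 had between 7483 and 153946 counts, and the weakest of the well-counted transcripts, Anpep, had between 42 and 2941. Higd1b had 0 counts in the A/J male cortex library titled low, which at 3 counts allows up to 0.847 CPM, and 2 counts in the 129S1/SvImJ female cortex library titled high, replicate 3. Kcnj8 had 1 count in the 129S1/SvImJ female hippocampus library titled high, replicate 3, although that library held 38277327 counts. These floors cover counting error only. Kcnj8 and Higd1b accordingly varied most, with an SD of 1.43 and 1.38 on the log2(CPM + 1) scale, against 0.57 to 0.91 for the other 8.

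The first comparison asked whether pericyte transcripts differed among the 7 strains. In edgeR's quasi-likelihood F test, 6 of 10 transcripts differed (Abcc9, Rgs5, Vtn, Notch3, Cspg4 and Pdgfrb), against 2.68% of all genes tested. WSB/EiJ had the highest mean level of 8 transcripts, and NOD/ShiLtJ of Anpep and Vtn. The lowest strain was 129S1/SvImJ for 4 transcripts, A/J for 3, CAST/EiJ for 2 and DBA/2J for 1. Atp13a5 (adjusted p = 0.125), Kcnj8 (0.759), Anpep (0.817) and Higd1b (0.843) did not pass.

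**Figure D1:**
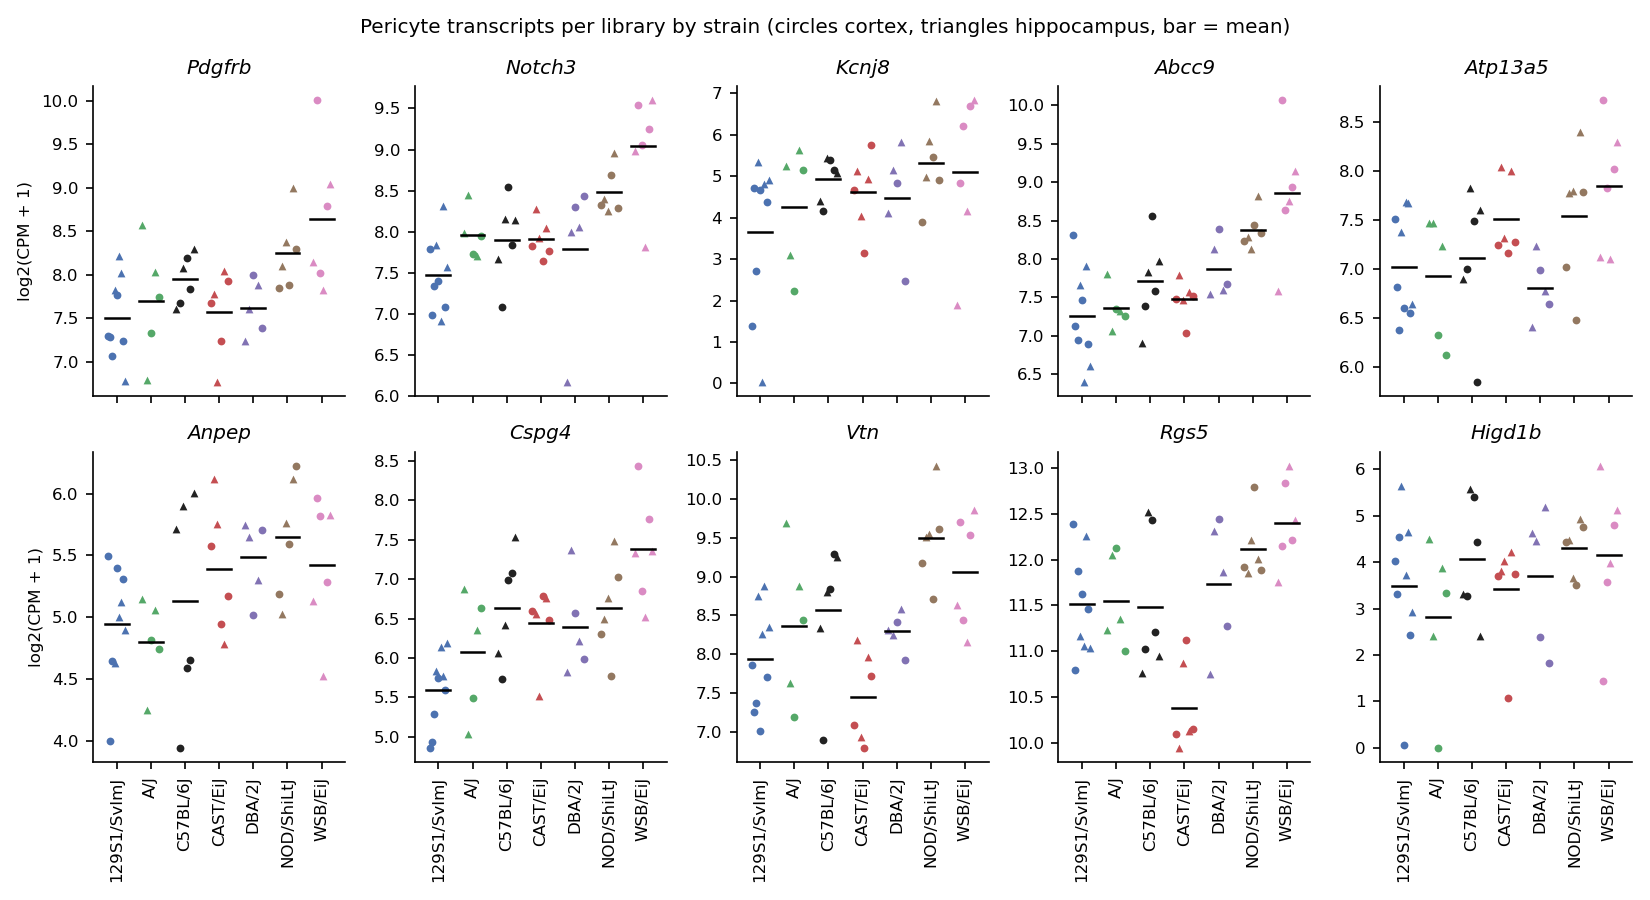
Level of each pericyte transcript in every library, as log2(CPM + 1) on the vertical axis with its own scale per panel, by strain on the horizontal axis. Circles are cortex, triangles hippocampus and black bars strain means. WSB/EiJ libraries sat high for Notch3 and Abcc9, and CAST/EiJ libraries sat low for Rgs5, between 984 and 2228 CPM.

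Between neighbouring strains in the order of means, the ranges overlapped in 60 of 60 cases. Over all genes 0.107% of such cases did not overlap, and over genes averaging 5 CPM or more 0.227%. The difference of neighbouring means exceeded the larger of the SDs in 4 of 60. The share was 0.842% over all genes and 1.92% over those averaging 5 CPM or more. These 4 were Notch3 between WSB/EiJ and NOD/ShiLtJ and between NOD/ShiLtJ and A/J, Abcc9 between NOD/ShiLtJ and DBA/2J, and Rgs5 between 129S1/SvImJ and CAST/EiJ. The highest and lowest strain did not overlap for 3 transcripts: Vtn (means 771 and 185 CPM, ratio 4.16), Rgs5 (5656 and 1403 CPM, ratio 4.03) and Cspg4 (182 and 49.6 CPM, ratio 3.66). The same held for 5.37% of all genes tested and for 11.2% of those averaging 5 CPM or more.

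Each strain was then set against the mean of the other 6 in the same fit, and 10 of the 70 values passed, 6 higher and 4 lower. WSB/EiJ held 5 of them, against 2.41% of all genes called in that contrast: Abcc9, Notch3, Cspg4, Pdgfrb and Rgs5, all higher. All 10 transcripts lay above 0 in WSB/EiJ, with a median log2 fold change of 0.93, while the median over all genes was -0.72. Over the 16592 genes that reached 1 CPM in 5 or more libraries that median was -0.06 and the median of the 10 transcripts was 0.91. The same 5 transcripts were called there, against 4.21% of these genes. Scaling by DESeq2 size factors left the same 5 called, against 2.03% of all genes, and the same 10 above 0, with a median of 0.93.

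**Figure D2:**
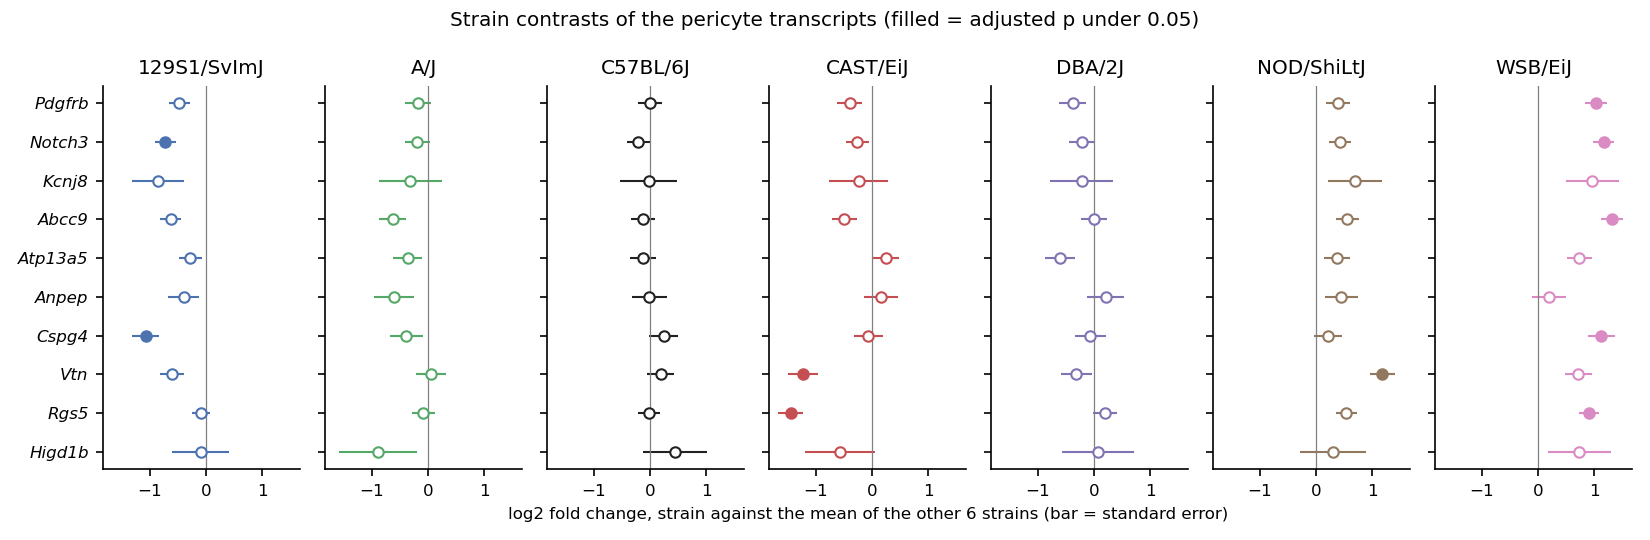
Log2 fold change of each pericyte transcript in 1 strain against the mean of the other 6 strains (horizontal axis, bars are standard errors). Filled points passed an adjusted p of 0.05. All 10 points lie right of 0 in WSB/EiJ and NOD/ShiLtJ and left of 0 in 129S1/SvImJ.

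Notch3, the Notch receptor of mural cells, was at 223 (lowest), 568 (median) and 776 (highest) CPM in the 6 WSB/EiJ libraries, and at 120, 168 and 316 CPM in the 9 libraries of 129S1/SvImJ. All WSB/EiJ libraries but 1 lay above every 129S1/SvImJ library. Notch3 was higher in WSB/EiJ than in the other strains (log2 fold change 1.16, SE 0.18, adjusted p = 1.69e-05) and lower in 129S1/SvImJ (-0.72, SE 0.18, adjusted p = 0.0220). The first call held without any 1 of the 6 WSB/EiJ libraries. The second was lost without any 1 of 3 female libraries titled high (cortex 1, cortex 2 and hippocampus 3), where the adjusted p rose to between 0.0502 and 0.0583. Notch3 overlaps the antisense gene Gm17276 over 488 exon bases, which held 648 counts in all against 125395 for Notch3, and whether the counting used strand is not stated.

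Pdgfrb, the receptor through which endothelial PDGF-B recruits pericytes, was at 225, 362 and 1028 CPM (lowest, median, highest) in WSB/EiJ and at 109, 157 and 296 CPM in 129S1/SvImJ, and these ranges overlapped. The highest value by far came from 1 library, the WSB/EiJ female cortex. The contrast of WSB/EiJ with the other strains was 1.03 (SE 0.20, adjusted p = 0.00082), and without that library it was 0.59 with an adjusted p of 0.156, so the call rested on that library.

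The channel subunits differed in how clearly they varied. Abcc9, the sulfonylurea receptor, was at 191, 460 and 1072 CPM in WSB/EiJ, at 279, 316 and 449 CPM in NOD/ShiLtJ and at 133 to 222 CPM in the 5 A/J libraries. It was higher in WSB/EiJ (1.32, SE 0.19, adjusted p = 2.08e-06). Without the female cortex library, which held the top value, the contrast was 0.96 (adjusted p = 0.00311), and the call held without each of the 6 libraries in turn. Kcnj8, the pore subunit, had its highest mean in WSB/EiJ as well, at 2.68, 50.7 and 113 CPM, but its libraries spread too widely for a call (0.96, SE 0.47, adjusted p = 0.355). Abcc9 overlaps the antisense gene 5330439B14Rik over 158 exon bases, with 97 counts in all against 117213.

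Among the surface proteins, Cspg4 was at 90.7, 162 and 346 CPM in WSB/EiJ and at 28.0, 52.7 and 71.8 CPM in 129S1/SvImJ, with no overlap between these strains. It was higher in WSB/EiJ (1.12, SE 0.24, adjusted p = 0.00261) and lower in 129S1/SvImJ (-1.06, SE 0.24, adjusted p = 0.00687). The first call was lost without the WSB/EiJ female cortex library (0.81, adjusted p = 0.106), and the second held without each of the 9 libraries in turn. Anpep ran between 14.4 and 73.7 CPM over all libraries, and its strain means spanned only a ratio of 1.87, from 27.5 CPM in A/J to 51.6 CPM in NOD/ShiLtJ.

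Vtn was the transcript highest in NOD/ShiLtJ, at 418, 739 and 1374 CPM, and lowest in CAST/EiJ, at 110, 172 and 289 CPM. It was higher in NOD/ShiLtJ than in the other strains (1.18, SE 0.22, adjusted p = 0.00196) and lower in CAST/EiJ (-1.22, SE 0.27, adjusted p = 0.00329). The NOD/ShiLtJ call, the only one of 10 transcripts against 0.185% of all genes, was lost without the male hippocampus library titled high (0.93, adjusted p = 0.120). The CAST/EiJ call held without each of 6 libraries.

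Rgs5 was at 984, 1127 and 2228 CPM in CAST/EiJ and at 3465, 5148 and 8314 CPM in WSB/EiJ, the strains being separated without overlap. It was lower in CAST/EiJ (-1.44, SE 0.22, adjusted p = 2.22e-06) and higher in WSB/EiJ (0.90, SE 0.18, adjusted p = 0.00116), and both calls held without each of their 6 libraries. Both are wild-derived strains, and Rgs5 moved in opposite directions in them. The mitochondrial rRNA gene mt-Rnr2 was looked at after its values were seen. It had its lowest strain mean in CAST/EiJ as well (4.25% ± 1.56 of scaled CPM, SD) and its highest in WSB/EiJ (9.61% ± 5.57). The ranges overlapped, and the part of mt-Rnr2 in the Rgs5 difference was not tested. In CAST/EiJ, 2 of 10 transcripts were called (Rgs5 and Vtn), against 1.35% of all genes, and Atp13a5 and Anpep lay above 0 without passing (0.25 and 0.16). Reads of every strain had been aligned to the mm10 reference, and the effect of strain differences in sequence on these counts was not tested.

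In 129S1/SvImJ 2 of 10 transcripts were called lower, against 1.46% of all genes, and all 10 lay under 0 with a median of -0.54. Most libraries of 129S1/SvImJ were female, unlike those of the other strains, and female libraries were deeper. The strain contrasts had no covariates, and the part of sex and depth in this one was not tested. None was called in A/J, C57BL/6J or DBA/2J, where 0.254%, 0.529% and 0.192% of all genes were called and 1, 0 and 1 of the 10 had an unadjusted p under 0.05. By DESeq2 the test among strains called 6 of the 10 transcripts too, against 5.13% of all genes. The 10 libraries with the highest mean of the pericyte transcripts were 4 of NOD/ShiLtJ, 4 of WSB/EiJ and 2 of C57BL/6J.

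Other cell types were compared over the same strains. WSB/EiJ had summed levels of 18734 to 30290 CPM for the 20 endothelial genes (17886 to 39447 over all libraries), 130 to 427 CPM for 10 smooth muscle genes with Cnn1 at 0 throughout, 53.3 to 166 CPM for 8 fibroblast genes with Lum at 0 throughout, and 16.5 to 43.5 CPM for 6 oligodendrocyte precursor genes with C1ql1 at 0 throughout. These zeros were not particular to WSB/EiJ. Over all libraries Cnn1 was at 0 in 40, and Lum and C1ql1 were at 0 in 36 each. Among other strains, Cnn1 was at 0 throughout in CAST/EiJ and NOD/ShiLtJ, Lum in DBA/2J and C1ql1 in A/J. In CAST/EiJ smooth muscle genes summed to 215 to 450 CPM and endothelial genes to 19789 to 32540 CPM. The strain test called 2 of 10 smooth muscle genes (Acta2 and Tagln), 5 of 20 endothelial genes, 0 of 8 fibroblast genes and 0 of 6 oligodendrocyte precursor genes, the last with 0 at an unadjusted p under 0.05 and the fibroblast genes with 2. It also called 2 of 8 astrocyte genes, 1 of 6 neuronal genes and 0 of 6 microglial genes, the last with 0 at an unadjusted p under 0.05. Neuronal genes summed to 253 to 951 CPM in WSB/EiJ and 96.4 to 424 CPM in CAST/EiJ, and astrocyte genes to 2863 to 4792 and 1446 to 6553 CPM. WSB/EiJ was also the shallowest strain, and with all libraries drawn down to 1626534 counts 7 transcripts were called in it, Atp13a5 and Vtn being added, against 3.21% of all genes. The part of these other cell types in the strain differences was not tested.

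The next comparison set male libraries titled low against those titled high. Rgs5 was the 1 transcript of 10 called, against 1.07% of 27824 genes. In the 13 low libraries Rgs5 was at 1865, 5083 and 8314 CPM (lowest, median, highest) and in the 14 high libraries at 1118, 2544 and 5543 CPM, so the ranges overlapped. It was higher in low libraries (0.82, SE 0.17, adjusted p = 0.00315). Within strain and region, Rgs5 was higher in the low library in 13 of 13 matched pairs, by a mean of 0.88 ± 0.38 (SD) on the log2(CPM + 1) scale. In the cortex alone the difference was 0.96 (adjusted p = 0.0495) and in the hippocampus alone 0.72 (adjusted p = 0.428). DESeq2 called Rgs5 alone as well, against 2.29% of all genes.

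The direction was shared by strains with very different levels, while the size of the step ranged from 0.21 to 1.58. In CAST/EiJ the cortex pair was at 2228 CPM (low) and 1136 CPM (high) and the hippocampus pair at 1865 and 1118 CPM. In C57BL/6J the cortex pair was at 5533 and 2366 CPM and the hippocampus pair at 5886 and 1973 CPM. In WSB/EiJ the cortex pair was at 7334 and 4754 CPM and the hippocampus pair at 8314 and 5543 CPM. The smallest step was that of the NOD/ShiLtJ hippocampus, at 4751 and 4119 CPM.

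**Figure D3:**
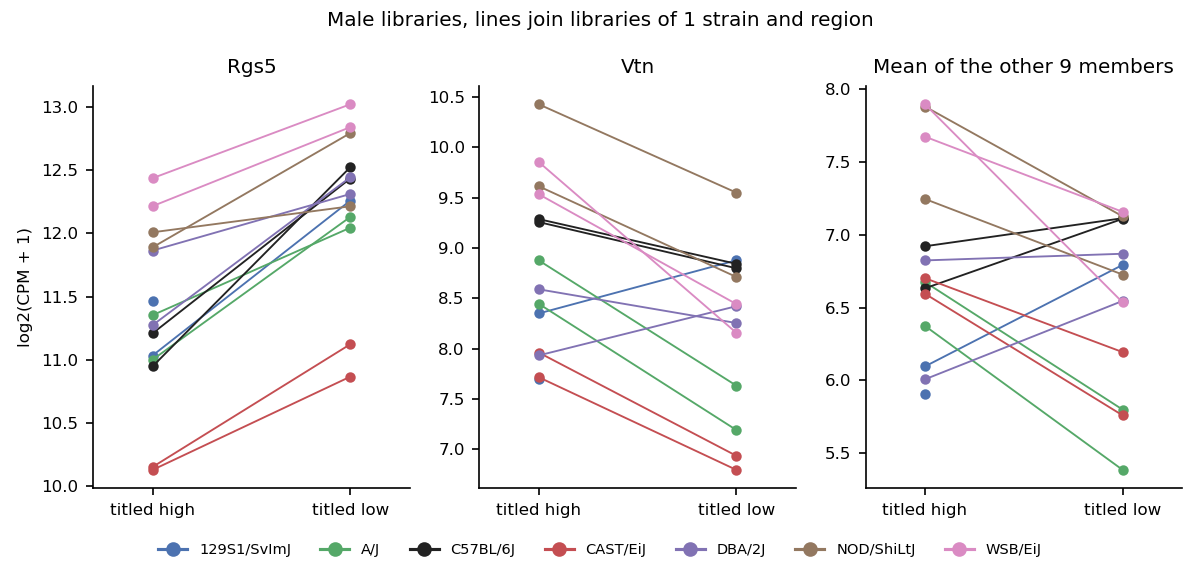
Level in male libraries titled high and low, as log2(CPM + 1), for Rgs5, Vtn and the mean of the other 9 pericyte transcripts. Each line joins libraries of 1 strain and region and the unjoined point is a 129S1/SvImJ cortex library with no low counterpart. The Rgs5 lines rise in 13 of 13 pairs, and the Vtn lines rise in 2 of 13.

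Vtn went the other way without passing. It was at 110, 342 and 748 CPM in low and at 207, 426 and 1374 CPM in high libraries (-0.67, SE 0.23, adjusted p = 0.197), and was lower in the low library in 11 of 13 pairs. Vtn was called when strain and region were covariates (-0.65, adjusted p = 0.00347) or when each combination of them was a block (-0.72, adjusted p = 6.72e-05). Pdgfrb (-0.38), Cspg4 (-0.45) and Kcnj8 (-0.70) had an unadjusted p under 0.05 and adjusted p-values from 0.584 to 0.606. The 10 transcripts had a median of -0.15, beside -0.05 over all genes. Rgs5 made up 77.0% ± 5.49 of the summed level of the 10 in low libraries and 61.4% ± 9.34 in high libraries.

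Genes of other cell types moved with the tag. Endothelial genes were called in 7 of 20 cases, 6 of them lower in low libraries, among them Cldn5 (-0.96) and the membrane protein gene Itm2a (-0.88), and the transcription factor gene Erg was higher (0.60). Astrocyte genes were called in 2 of 8 cases, the glutamate transporter Slc1a2 (0.88) and the glycolytic enzyme Aldoc (1.12), and neuronal genes in 2 of 6, Snap25 (0.95) and Nrgn (1.02), all higher. Summed levels in low and high libraries were 3070 to 19379 and 1430 to 7224 CPM for astrocyte genes, 257 to 822 and 88.8 to 602 CPM for neuronal genes, and 17886 to 24913 and 18734 to 30424 CPM for endothelial genes. The 10 smooth muscle genes summed to 130 to 321 and 156 to 352 CPM, and the 12 other pericyte genes to 61.8 to 376 and 152 to 429 CPM. In each of these lists edgeR called 0 genes, with 1 at an unadjusted p under 0.05. The median log2 fold change of the smooth muscle genes was nevertheless -1.02, with 3 of 10 above 0, and Acta2 was at -1.78 (adjusted p = 0.177). The part of these cell types in the Rgs5 difference was not tested.

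None of the 10 transcripts was called between cortex and hippocampus, and no share over all genes is given for the pair counts below. In edgeR 0 were called, against 0.0755% of all genes, and 2 had an unadjusted p under 0.05. DESeq2 called 0, against 61 of 29120 genes. Higd1b was at 0, 10.4 and 41.1 CPM in the cortex and at 4.28, 19.3 and 66.3 CPM in the hippocampus, overlapping widely (0.86, SE 0.40, adjusted p = 0.669), and it was higher in the hippocampus library in 16 of 17 pairs of the same strain, sex and tag with 1 library each. Vtn was at 110, 243 and 835 CPM in the cortex and at 121, 390 and 1374 CPM in the hippocampus (0.46, SE 0.22, adjusted p = 0.669), and was higher in 12 of 17 pairs. Atp13a5 was higher in 14 of 17 pairs (0.34, adjusted p = 0.669) and Kcnj8 in 13 of 17 (0.32, adjusted p = 0.797). The remaining 6 transcripts lay between -0.24 (Abcc9) and 0.18 (Anpep), and 0 of the 10 were called when each combination of strain, sex and tag was a block. The 17 pairs leave out the 129S1/SvImJ female libraries titled high, which had several libraries a region. With replicates 1 and 3 of these added as pairs by number, Higd1b was higher in 18 of 19, Atp13a5 in 16, Vtn in 14 and Kcnj8 in 14. For Kcnj8, replicate 3 went from 24.2 CPM in the cortex to 0.025 CPM in the hippocampus, the largest fall of the 19.

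Sex gave no call either, in a design where 15 of 16 female libraries but 14 of 27 male libraries were titled high. In edgeR 0 of 10 transcripts were called, against 2.85% of all genes, and 2 had an unadjusted p under 0.05. DESeq2 called 1, Rgs5, against 3.54% of all genes. Rgs5 was at 984, 2348 and 5338 CPM in female and at 1118, 4119 and 8314 CPM in male libraries (-0.54, SE 0.18, adjusted p = 0.0970). Among libraries titled high alone the difference was -0.18 (adjusted p = 0.637). Kcnj8 was at 0.025, 22.2 and 39.3 CPM in female and at 3.67, 34.2 and 113 CPM in male libraries (-1.02, SE 0.37, adjusted p = 0.148), and its difference was -1.23 (adjusted p = 0.129) among libraries titled high. Depth and rRNA-like share differed between the sexes as given above, and their part was not tested.

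Wild-derived strains were compared with long-inbred strains because this was a comparison of the study. No pericyte transcript passed in edgeR, where 0.749% of all genes did, and 5 of the 10 had an unadjusted p under 0.05. DESeq2 called 0, against 1.36% of all genes. Notch3 came closest, at 199, 286 and 776 CPM in the 12 wild-derived and at 71.0, 252 and 496 CPM in the 31 long-inbred libraries (0.67, SE 0.19, adjusted p = 0.0630). Rgs5 averaged 3529 CPM in wild-derived and 3532 CPM in long-inbred libraries, with the strains of the wild-derived group at opposite ends of its order. Without CAST/EiJ 4 transcripts were called (Abcc9, Cspg4, Notch3 and Pdgfrb), against 0.878% of all genes, and without WSB/EiJ 1 was (Rgs5, lower), against 0.987%. The test takes libraries of 2 and 5 strains as replicates. With counts summed per strain edgeR called 0 of the 10, against 0.0206% of all genes, and 3 of the 10 had an unadjusted p under 0.05.

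Whether the region effect differed between the sexes or between strain origins, and whether the tag effect differed between regions, was tested by interaction terms. In edgeR 0 of 10 transcripts were called in each, against 0.00343%, 0% and 0% of all genes, and 0, 2 (Cspg4 and Pdgfrb) and 0 had an unadjusted p under 0.05. The Rgs5 interaction of tag with region was -0.21 (SE 0.33).

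Libraries rich in 1 pericyte transcript tended to be rich in the others. Over the 43 libraries Pearson's r of log2(CPM + 1) was above 0 in 45 of 45 pairs of transcripts. Its median was 0.42 (Spearman's median rho 0.44). After Benjamini-Hochberg adjustment over the 45, 30 pairs passed a two-sided permutation test. That test took no account of strain, sex or tag, and a share over pairs of other genes is not given here. Pdgfrb and Cspg4 were the closest pair (r = 0.78, rho = 0.71, p = 1e-05 for both, the smallest that 100000 permutations can give, adjusted p = 5.62e-05). Without the 2 libraries farthest from the Pdgfrb median r was 0.72. Pdgfrb and Vtn followed (r = 0.75, rho = 0.81), then Notch3 and Abcc9 (r = 0.75, rho = 0.76), with the same permutation p. The channel partners Kcnj8 and Abcc9 were less alike (r = 0.47, rho = 0.49, permutation p = 0.00174 and 0.0011). As deviations from strain means, 37 of 45 pairs stayed above 0 with a median of 0.32. Within male libraries 45 of 45 and within female libraries 36 of 45 pairs were above 0.

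**Figure D4:**
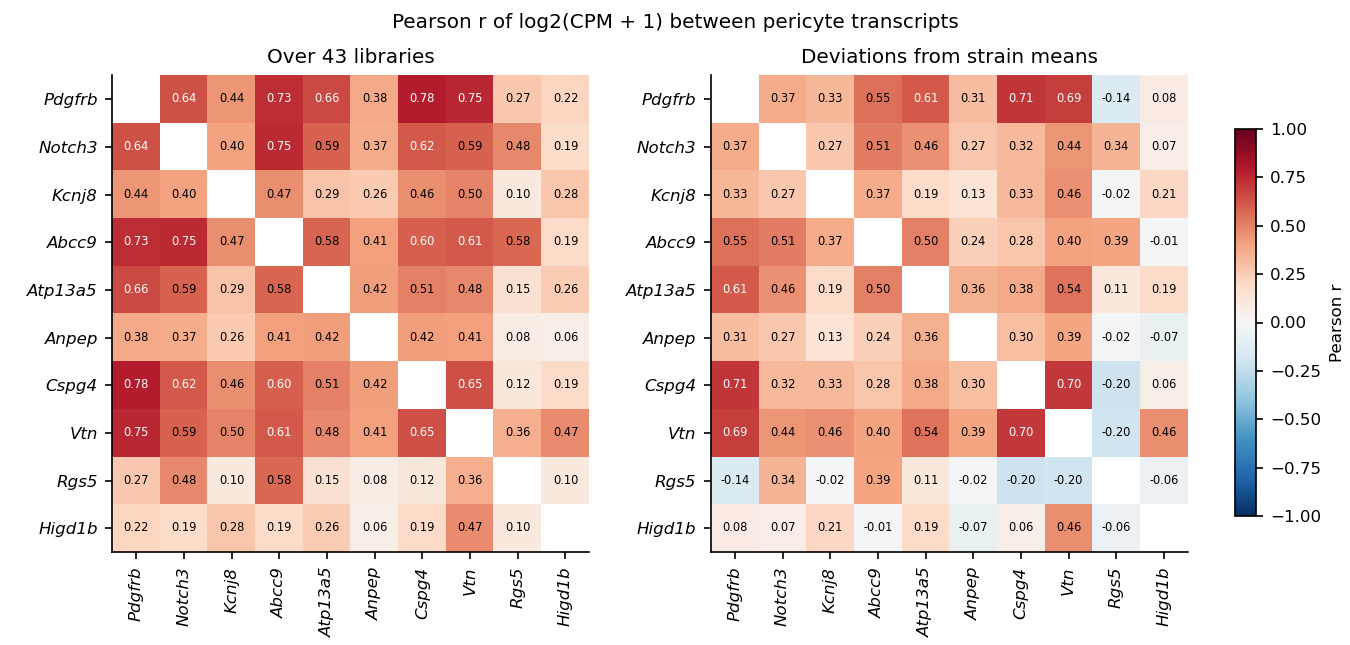
Pearson's r of log2(CPM + 1) for each pair of pericyte transcripts over 43 libraries (left) and for deviations from strain means (right), with the colour scale from -1 to 1. The rows of Rgs5 and Higd1b are the palest, with median r of 0.15 and 0.19 on the left.

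Rgs5 and Higd1b stood apart from the rest. Rgs5 had a median r of 0.15 with the other 9 transcripts and passed with 3 of them, Abcc9 (r = 0.58), Notch3 (r = 0.48) and Vtn (r = 0.36). Higd1b had a median r of 0.19 and passed with 1, Vtn (r = 0.47). The other 8 transcripts had medians from 0.38 to 0.64. As deviations from strain means, Rgs5 had an r of -0.20 with both Cspg4 and Vtn.

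Rgs5 was high where endothelial and smooth muscle genes were low. Its r with the mean of the endothelial genes was -0.64 (rho = -0.64) and with that of the smooth muscle genes -0.66 (rho = -0.61), with the smallest permutation p of 1e-05 and an adjusted p of 2e-04 over the 40 such correlations computed. Leaving out the 2 farthest libraries gave -0.62 and -0.57. Within females these values were -0.61 and -0.57 and within males -0.68 and -0.71. As a description without a test, Rgs5 had an r of 0.59 with the mean of the astrocyte genes and 0.57 with that of the neuronal genes. The mean of the other 9 transcripts had an r of -0.01, -0.07, 0.17 and -0.02 with the same 4 lists over all libraries, and of 0.20, 0.40, 0.10 and -0.15 as deviations from strain means. Taken singly, the other 9 transcripts had an r from -0.38 to 0.17 with the endothelial mean and from -0.35 to 0.20 with the smooth muscle mean, and 0 of these 18 passed. Within males Abcc9 reached -0.48 and -0.55 and Notch3 -0.47 and -0.49. Among the same 40 permutation tests, Notch3 (r = -0.60, adjusted p = 4e-04) and Cspg4 (-0.46, 0.0202) fell with log2 total count. So did Abcc9 and Rgs5 (both -0.42, 0.0275). By rho Cspg4 and Abcc9 did not pass (adjusted p = 0.110 and 0.0547). Within males and within females, r with log2 total count was -0.47 and -0.65 for Notch3 and -0.12 and -0.68 for Cspg4. For Abcc9 it was -0.44 and -0.53, and for Rgs5 -0.40 and -0.26. Kcnj8 rose with the rRNA-like share (r = 0.44, adjusted p = 0.0202), with an r of 0.18 within males and 0.39 within females. The part of these associations in the strain differences was not tested.

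**Figure D5:**
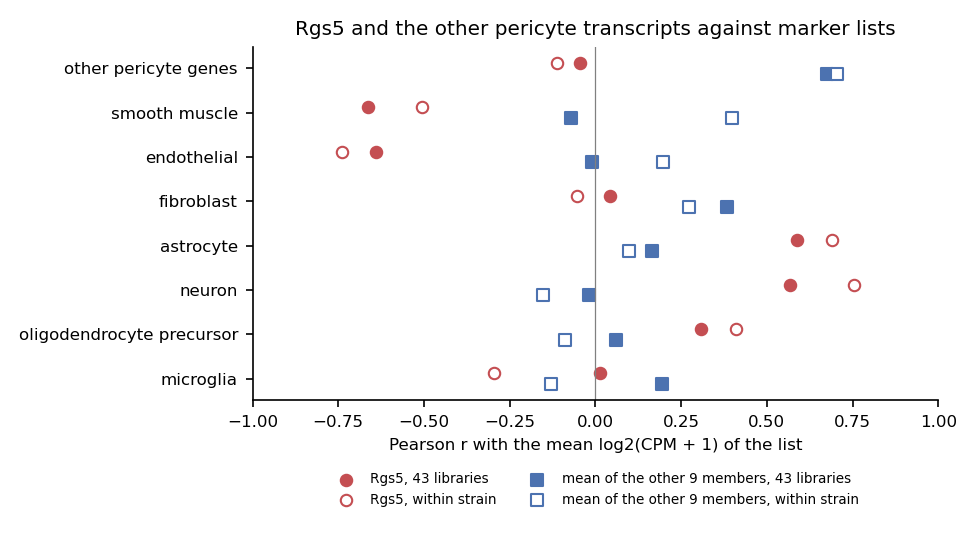
Pearson's r (horizontal axis) of Rgs5 (circles) and of the mean of the other 9 pericyte transcripts (squares) with the mean log2(CPM + 1) of 8 marker lists, over 43 libraries (filled) and for deviations from strain means (open). Rgs5 lies at -0.64 against endothelial and 0.59 against astrocyte genes, and the other 9 lie at 0.68 against the list of other pericyte genes.

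A list of 12 other genes reported in brain pericytes gave the opposite picture. The mean of the 9 transcripts without Rgs5 had an r of 0.68 with the mean of that list (0.71 within strains), and Rgs5 had one of -0.05 (-0.11 within strains). Of the 11 listed genes averaging at least 5 CPM, 11 had an r above 0 with the mean of the 10 transcripts, with a median of 0.32, beside -0.05 over 10639 genes. So had 8 of 8 astrocyte genes (median 0.09) and 5 of 5 fibroblast genes (median 0.13). Of the endothelial genes 10 of 20 had (median 0.03), and of the smooth muscle genes 2 of 7 (median -0.11). Cd248, a cell surface glycoprotein of mural cells and fibroblasts, had the highest (r = 0.61, rank 13). In the comparisons among strains, tags, regions, origins and sexes 0 of these 12 genes were called in edgeR, with 2, 1, 0, 1 and 1 at an unadjusted p under 0.05. Their mean levels ran from 4.41 CPM (Ifitm1) to 56.2 CPM (Cd248).

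Outside all lists, the 12 genes most like the mean of the 10 transcripts were Obsl1 (r = 0.74), Ptprk (0.74), Atp2a3 (0.71), Rgs4 (0.70), Zic1 (0.66), Lamc1 (0.64), Nedd4 (0.64), Sod3 (0.64), Ankrd50 (0.62), Gucy1b1 (0.61), Bgn (0.61) and Ano1 (0.61), over 43 libraries and 10639 genes. Obsl1 encodes a cytoskeletal adaptor, Ptprk a receptor tyrosine phosphatase, Atp2a3 a calcium pump of the endoplasmic reticulum and Rgs4 a relative of Rgs5. Lamc1 encodes a laminin chain of the basement membrane, Sod3 an extracellular superoxide dismutase, Gucy1b1 a subunit of soluble guanylate cyclase, Bgn the proteoglycan biglycan and Ano1 a calcium-activated chloride channel. As deviations from strain means their r ran from 0.44 (Nedd4) to 0.67 (Atp2a3).

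The partners of the pericyte receptors were measured in the same libraries. Pdgfb, the endothelial ligand of Pdgfrb, averaged 251 ± 81.6 CPM (SD, n = 43), and of the 5 other PDGF ligands and receptors 0 were called in the 5 comparisons, with 1 at an unadjusted p under 0.05 for the sexes and 1 for the tags. Of 12 Notch genes besides Notch3, the strain test called Notch1 (adjusted p = 0.0093) and the endothelial ligand gene Dll4 (adjusted p = 0.000126). Both were higher in wild-derived strains (Notch1 0.47, adjusted p = 0.0329, and Dll4 0.86, adjusted p = 0.00886), but with counts summed per strain, 2 against 5, both had an adjusted p of 0.855 (0.52 and 0.72). Leaving out 1 strain in turn lost the Notch1 call in 5 of 7 fits and the Dll4 call in 4 of 7, with the highest adjusted p for both without WSB/EiJ (0.876 and 0.151). The Notch target Hes1 was higher in female libraries (0.91, adjusted p = 0.00971), and 0 of the 12 were called for tag or region, with 3 and 1 at an unadjusted p under 0.05.

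The paralogues of the potassium channel subunits were at 0 in many libraries. Kcnj11 averaged 0.861 CPM and was 0 in 24 libraries, and Abcc8 averaged 2.20 CPM and was 0 in 18, with 0 of 2 called in each comparison and 0 at an unadjusted p under 0.05. Among integrin genes whose products bind vitronectin, Itgav averaged 54.1 CPM, Itgb5 53.1 CPM and Itgb3 3.62 CPM. Of these 3, 0 were called in each of the 5 comparisons, with 2 at an unadjusted p under 0.05 among strains and 1 each for origin, sex and tag.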

How the data were processed

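The 10 transcripts and all marker lists were chosen with earlier results of these data known. According to the labels and methods, RNA of sorted cells was depleted of rRNA, made into libraries with the SMARTer Stranded Pico kit, aligned to mm10 with HISAT2 2.1.0 (SAMtools 1.9) and counted with featureCounts of Subread 1.4.4. Whether counting used strand is not given in the sources used here. The authors deposited raw counts per gene for all libraries in 1 table, without normalization. Reads were not analysed here.

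From these counts, CPM were computed with TMM scaling, and edgeR 4.0.16 (quasi-likelihood F test, R 4.3.3) was run over all genes that reached 0.5 CPM in 1 or more libraries, with Benjamini-Hochberg adjustment and a threshold of 0.05. Each comparison used its factor alone as the model, the tag in male libraries only. The scripts were tested on simulated data. DESeq2 1.42.0, size factors, other filters, equal depth (counts drawn down to the smallest total), covariates, blocks and left-out strains or libraries were alternatives, and the contrasts of single strains, their scaling and their left-out libraries were added after seeing the data. Fits with several terms left out genes with a fitted count above 5 times their highest count. Correlations used log2(CPM + 1), Python 3.11.15 and scipy 1.17.1, with 100000 permutations. RPKM used exon lengths of GENCODE M21. Named genes were all 10 transcripts, listed genes that passed or stood highest, and the 12 genes outside the 10 with the highest r with their mean among genes averaging at least 5 CPM.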

Additional observations from a re-analysis of the deposited data

Results flagged for a closer look

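In 4 of 70 groups of 4 to 10 libraries of 1 strain tested for a value standing apart (Dixon's test, by which chance flags about 1 in 20), a library lay far from the others. Notch3 was at 71.0 CPM in the DBA/2J female hippocampus library, against 254 to 344 CPM in the other libraries of that strain. Notch3 was also at 223 CPM in the WSB/EiJ male hippocampus library titled low, against 506 to 776 CPM. Cspg4 was at 44.6 CPM in the CAST/EiJ male hippocampus library titled low, against 88.6 to 110 CPM. Higd1b was at 1.11 CPM in the CAST/EiJ male cortex library titled low, against 12.02 to 17.6 CPM. All of the 4 were the lowest library of their strain.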

How the results depend on the processing

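The number of the 10 transcripts called changed under the following alternatives, and the cause was not tested. Percentages in brackets are the shares of all genes called. Among strains, 3 were called without WSB/EiJ in place of 6 (2.37%), namely Abcc9, Rgs5 and Vtn. At equal depth (4.19%) or with covariates (3.45%) 7 were called, with Atp13a5 added. In males only (1.76%) or without 129S1/SvImJ (2.71%) 5 were called, with Cspg4 lost. Without CAST/EiJ (1.23%) 5 were called, with Rgs5 lost. Leaving out each library of A/J or DBA/2J gave 6 to 6 (2.46% to 2.96%). For the tag, 2 were called in place of 1 (Rgs5 and Vtn) at equal depth (1.76%) and with strain and region as covariates (2.27%). The same 2 were called with each combination of them as a block (2.42%), and 0 in the hippocampus alone (0.0363%). For the origin, the count of 0 became 2 at equal depth (1.18%) and 1 with covariates (0.881%). It became 4 without CAST/EiJ (0.878%), 2 without NOD/ShiLtJ (0.671%) and 1 without WSB/EiJ (0.987%). For the sexes, the count of 0 became 1 by DESeq2 (3.54%), with size factors (2.01%), without a filter (2.36%) or without CAST/EiJ (2.92%), Rgs5 each time. It became 2 at equal depth (2.61%), Kcnj8 and Rgs5. For the region, 0 were called under every one of the 17 alternatives run. No direction that had passed was reversed.

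Over all genes, the strain test called 781 genes, 1335 by DESeq2, 1239 at equal depth, 490 in males only and 347 without CAST/EiJ. The tag called 297, 638 by DESeq2, 489 at equal depth, 561 with covariates, 619 with the block, 33 in the cortex, 9 in the hippocampus, and 146, 161, 142 and 193 without A/J, C57BL/6J, CAST/EiJ and NOD/ShiLtJ. The region called 22, 61 by DESeq2, 110 at equal depth, 49 with covariates, 60 with the block, 8 in females and 11 without NOD/ShiLtJ. The origin called 218, 395 by DESeq2, 349 at equal depth and 6 with counts summed per strain. The sexes called 830, 521 with covariates, 474 among libraries titled high, and 451 and 514 without 129S1/SvImJ and DBA/2J. No paired analysis was possible by replicate number, because titles number replicates in 1 strain only, and libraries were matched or blocked by strain, sex, region and tag instead. In the shallowest library 3 counts came to 1.84 CPM.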

Other observations

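The mitochondrial rRNA gene mt-Rnr2, chosen after its values were seen, varied together with Rgs5 across libraries. It held between 2.98% and 19.5% of scaled CPM, which is not the share of raw counts. The mean was 10.9% ± 3.67 (SD, n = 13) in male libraries titled low and 6.54% ± 1.63 (n = 14) in those titled high. As a description over 43 libraries, Pearson's r of mt-Rnr2 with Rgs5 was 0.86, and 0.90 for deviations from strain means. It was 0.76 within male libraries titled low and 0.79 within those titled high. With the mean of the other 9 transcripts r was 0.04.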
